A study of Mus musculus with 6 samples.

Results

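The genes described here are 10 members of the amino acid arm of the integrated stress response and of serine synthesis: Atf4, Ddit3, Trib3, Asns, Chac1, Sesn2, Phgdh, Psat1, Slc7a11 and Slc7a5. They were taken by gene symbol from a deposited table of 24495 gene symbols, and each of the 10 symbols matched exactly 1 row. All 10 had enough counts to be tested, among 14855 genes that did. RNA was sequenced from cultured spermatogonial stem cells, which sustain sperm production for life, that came from DBA2 mouse testes at postnatal days 5 to 8. The EPZ5676 group received 2 uM EPZ5676 (pinometostat), which blocks the catalytic site of DOT1L, the enzyme that methylates lysine of histone H3 within transcribed genes, for 2 weeks, and the ethanol group received 0.2% ethanol as vehicle for 2 weeks. Each group had 3 libraries, described as biological triplicates in the series' design text. The labels do not say how many animals or cultures stand behind a replicate, nor what else was in the culture dish, so the p-values measure the spread between these libraries.

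In the integrated stress response, kinases that sense amino acid shortage, unfolded protein, double-stranded RNA or haem deficiency phosphorylate the translation factor eIF2. General translation then slows while translation of Atf4 mRNA increases, so the Atf4 transcript level is not a direct readout of ATF4 protein. ATF4 is a basic leucine zipper transcription factor that binds C/EBP-ATF response elements and switches on genes for amino acid synthesis, amino acid uptake and, when stress lasts, cell death. Serine synthesis branches off glycolysis and supplies glycine and folate-bound carbon units for nucleotide synthesis.

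None of the 10 genes passed the test over all genes, nor did any other of the 14855 genes tested. The clearest difference was in Asns, the gene of asparagine synthetase, whose level was 1.32-fold that of the vehicle group in cells given EPZ5676. Sesn2, a gene of the nutrient-sensing sestrins, stood on the other side, at 0.811-fold of the vehicle level. In both genes the 3 EPZ5676 libraries did not overlap the 3 ethanol libraries, as in 14.9% of all genes tested. The remaining genes of the response, including Atf4 itself, had overlapping groups or, for Psat1, differed by a small amount in separate groups. Of the 10 genes, 6 had a positive and 4 a negative log2 fold change, with a median of 0.04, against a median of -0.00663 over all genes tested.

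Levels are CPM, counts scaled to the size of the library by the TMM method. Column totals ran from 19866337 to 54645903 counts under EPZ5676 and from 17784332 to 21046473 under ethanol. The largest total was that of EPZ5676 replicate 2 alone, while EPZ5676 replicates 1 and 3 had 19866337 and 20676993. By the quasi-likelihood test of edgeR, 0 of 14855 genes (0%) had a Benjamini-Hochberg adjusted p under 0.05. At an unadjusted p under 0.05 it gave 1101 genes, a share of 7.41%. Same-numbered libraries of the groups deviated together, most clearly those of replicate 2. A fit that takes the replicate number for a block is therefore given where it bears on a gene. That fit called 97 genes, a share of 0.653%, of which 48 were higher and 49 lower; with library totals in place of TMM the split was 76 higher and 117 lower. Undifferentiated spermatogonia markers were all expressed, with a sum over 12 genes of 4507 to 4735 CPM under EPZ5676 and 4294 to 4908 CPM under ethanol. Dazl, at a mean of 1769 CPM under EPZ5676 and 1695 CPM under ethanol, weighs most in this sum, which can hide weaker markers. Dazl and Ddx4 mark germ cells more widely, so the sum is not specific to undifferentiated spermatogonia. Of the 12, 6 had a positive and 6 a negative log2 fold change. Gfra1 was lower (52.2 ± 7.66 against 69.5 ± 3.30 CPM) and Etv5 higher (100 ± 5.45 against 88.2 ± 4.31 CPM) under EPZ5676, in separate groups. Their edgeR adjusted p were 0.596 and 0.67. Fibroblast markers were present too, with a sum over 15 genes of 1374 to 1798 CPM under EPZ5676 and 1356 to 2308 CPM under ethanol, and the replicate 2 library was the highest of each group. Of 15 fibroblast markers, 12 had a negative log2 fold change, and the part of these cells in the differences below was not tested. Fewer cells of a type and less RNA per cell cannot be told apart in such libraries. Leydig markers other than Star had 16 counts or fewer in any library, and Hsd3b1 and Insl3 had at most 1. Dot1l, the gene of the inhibited enzyme, was at 243 ± 40.4 CPM under EPZ5676 and 202 ± 3.92 CPM under ethanol (SD, n = 3 each); the inhibitor acts on the enzyme, so this level is no check of the labels.

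**Figure D1:**
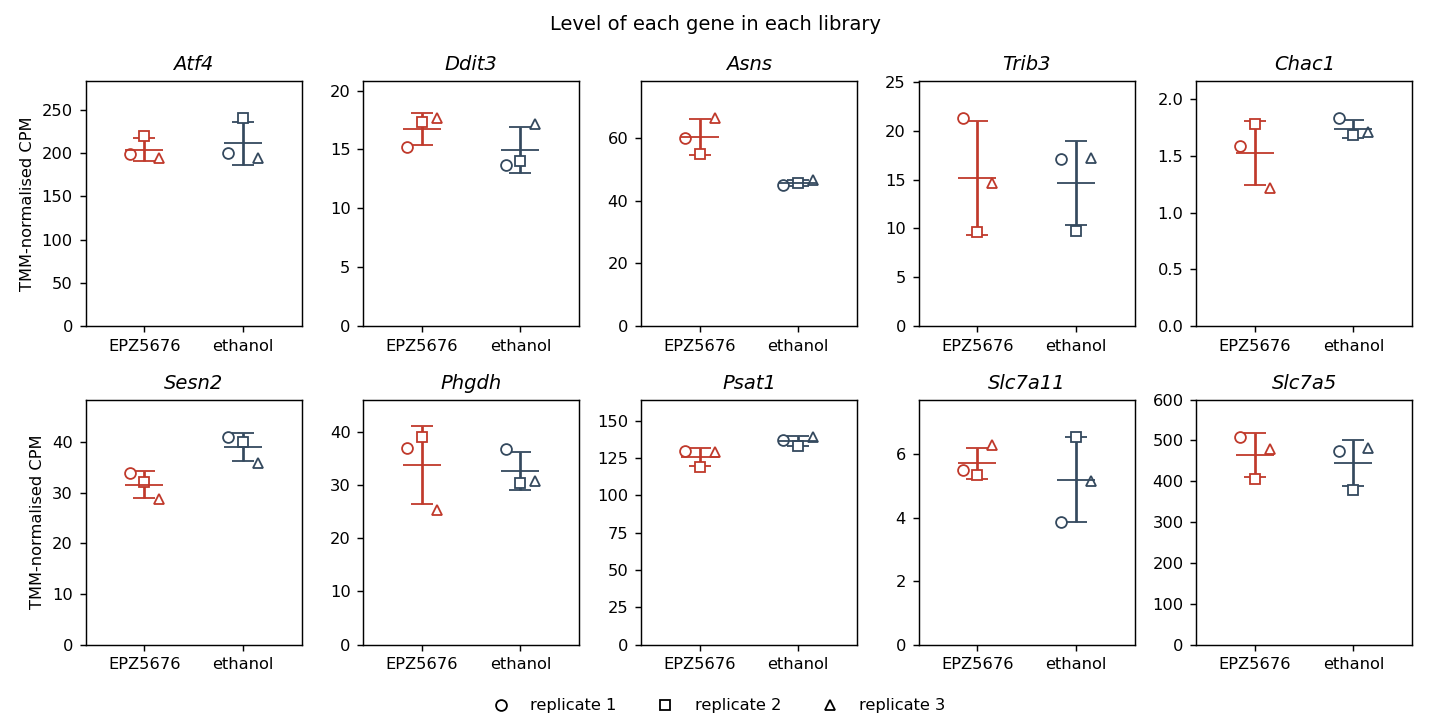
TMM-normalised CPM (vertical axes, each from 0) of the 10 genes in the 3 EPZ5676 and 3 ethanol libraries. Symbols are libraries by replicate number, horizontal bars the group means and error bars the SD. Asns is higher in all EPZ5676 libraries (54.9 to 66.4 CPM) than in any ethanol library (45.0 to 46.8 CPM), and Sesn2 is lower (28.7 to 33.9 against 35.7 to 41.0 CPM).

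The transcription factors of the pathway come first. Atf4, its central factor, was at 198, 219 and 194 CPM under EPZ5676 (replicates 1, 2 and 3) and at 200, 240 and 195 CPM under ethanol. The groups overlapped, and in each of them replicate 2 was the highest library. The log2 fold change was -0.05 ± 0.10 (SE), with a 95% interval of -0.28 to 0.17, and the adjusted p by edgeR was 0.924. Ddit3 encodes CHOP, a stress-induced factor that favours cell death when stress lasts. Its level was 15.2, 17.3 and 17.6 CPM under EPZ5676 and 13.7, 14.0 and 17.2 CPM under ethanol. The groups overlapped through EPZ5676 replicate 1 and ethanol replicate 3, although Ddit3 was higher under EPZ5676 in each same-numbered pair. The log2 fold change of Ddit3 was 0.16 ± 0.14 (SE), with an interval of -0.15 to 0.48 and an adjusted p of 0.822 in the edgeR test. Trib3 encodes a pseudokinase that ATF4 and CHOP induce and that in turn restrains ATF4. It was at 21.3, 9.60 and 14.7 CPM under EPZ5676 and at 17.1, 9.69 and 17.2 CPM under ethanol. Trib3 varied more by replicate number than by treatment: both replicate 2 libraries were low, and the EPZ5676 values lay above, at and below their partners. Its 95% interval, -0.68 to 0.75 around a log2 fold change of 0.03, was the widest of the 10 genes without the block.

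Asns makes asparagine from aspartate with glutamine as nitrogen donor, and it is a well-known transcriptional target of ATF4. Its level was 60.0, 54.9 and 66.4 CPM under EPZ5676, from 1174, 3025 and 1363 counts. With ethanol it was 45.0, 45.7 and 46.8 CPM, from 884, 816 and 986 counts. All 3 EPZ5676 libraries lay above all 3 ethanol libraries, whose own SD was 0.932 CPM against 5.78 CPM under EPZ5676. Groups failed to overlap in either direction for 14.9% of all genes tested, and with the EPZ5676 group higher for 7.22%. The log2 fold change of Asns was 0.40 ± 0.09 (SE), with a 95% interval of 0.18 to 0.62. The unadjusted p was 0.00273 and the adjusted p 0.54 by edgeR, so Asns was not called. With the replicate block the log2 fold change was 0.39 ± 0.07 and the adjusted p 0.052, just over the threshold. DESeq2 with the replicate block called Asns at an adjusted p of 0.0124, among 293 of 14855 genes called. DESeq2 without the block did not call Asns, at 0.0987. Leaving out pair 2 or pair 3 in the blocked edgeR fit gave adjusted p of 0.00286 and 0.0304, and leaving out pair 1 gave 0.507. Over all genes these fits called 795 of 14822 without pair 2, 761 of 14912 without pair 3 and 0 of 15002 without pair 1. They rest on fewer libraries and fewer residual degrees of freedom than the full blocked fit. The blocked fit with library totals in place of TMM, an alternative added after the data were seen, gave 0.0468. It called 193 of 14855 genes. Over all 19 alternatives the adjusted p ran from 0.00286 to 0.999, and the log2 fold change stayed between 0.32 and 0.46.

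Sesn2 encodes sestrin 2, a leucine-binding inhibitor of mTORC1 signalling that is also a target of ATF4 and of p53. Its level was 33.9, 32.0 and 28.7 CPM under EPZ5676 and 41.0, 40.0 and 35.7 CPM under ethanol. The highest EPZ5676 library stayed below the lowest ethanol library, as for 7.64% of all genes tested. The log2 fold change was -0.30 ± 0.11 (SE), with an interval of -0.54 to -0.06, an unadjusted p of 0.0202 and an adjusted p of 0.621 in the edgeR test. With the replicate block the adjusted p was 0.1. Sesn2 differed by nearly the same amount within each pair, with log2 differences of -0.27, -0.32 and -0.32 in pairs 1, 2 and 3. It was called in 0 of 19 alternatives, and its log2 fold change lay between -0.36 and -0.24 in them.

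The log2 ratio of Asns to Sesn2 within a library sets these genes against each other without any scaling between libraries; it was chosen with their values known and is given without a test. It was 0.82, 0.78 and 1.21 under EPZ5676 and 0.13, 0.19 and 0.39 under ethanol. The mean was 0.94 ± 0.24 under EPZ5676 and 0.24 ± 0.13 under ethanol (SD, n = 3 each), and the groups were separate. That separation was fixed in advance, since Asns and Sesn2 were each separate in opposite directions, and it adds nothing to their own values. Gene length cancels between libraries in this ratio, so only its difference between groups can be read, not which transcript was the more abundant.

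Both genes are described as ATF4 targets, so the stretch before their annotated starts is shown, from RefSeq on GRCm38.p6 (the counts were made on mm9, so no position is shared with the files). A C/EBP-ATF core, TGATGNAA on either strand, was searched in the 250 bases before and 50 bases after each annotated start. It occurred in 3.97% of 32851 such windows of the genome, and in 4 of the 10 windows held by 9 of these genes; no window of Slc7a5 was matched. The 250 bases before the start of Asns, chr6:7693210-7693459 on the minus strand, hold the core from base -23 to base -16, in capitals. Those of Sesn2, chr4:132510457-132510706 on the minus strand, hold no match to these letters. Both are written 5′ to 3′ on the strand of the gene.
Asns: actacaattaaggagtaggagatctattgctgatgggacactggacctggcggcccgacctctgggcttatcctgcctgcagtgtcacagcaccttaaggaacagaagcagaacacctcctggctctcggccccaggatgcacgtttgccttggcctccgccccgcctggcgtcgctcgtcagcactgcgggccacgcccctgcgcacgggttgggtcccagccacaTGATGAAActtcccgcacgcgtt
Sesn2: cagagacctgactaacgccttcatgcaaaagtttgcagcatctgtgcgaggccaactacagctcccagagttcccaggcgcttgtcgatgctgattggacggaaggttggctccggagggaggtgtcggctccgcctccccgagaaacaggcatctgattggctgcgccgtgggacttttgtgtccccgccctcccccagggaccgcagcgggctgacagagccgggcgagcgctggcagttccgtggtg

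The core also occurred beside the starts of Chac1, Trib3 and Slc7a11, and these sites are shown because their genes did not share the direction of Asns in every pair. Ddit3, which was higher under EPZ5676 in every pair as Asns was, had no match in its window. A link between the core and these levels was not tested. Each site is given as 30 bases on the strand of the gene, 5′ to 3′, with the core or its reverse complement in capitals. The Chac1 site is chr2:119351038-119351067 on the plus strand, the Trib3 site chr2:152344028-152344057 on the minus strand and after the start, and the Slc7a11 sites chr3:50443661-50443690 and chr3:50443642-50443671 on the minus strand.
Chac1: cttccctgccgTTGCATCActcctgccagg
Trib3: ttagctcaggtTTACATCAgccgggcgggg
Slc7a11, first site: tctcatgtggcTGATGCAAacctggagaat
Slc7a11, second site: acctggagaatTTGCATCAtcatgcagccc

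Chac1 encodes an enzyme that degrades glutathione and is induced downstream of ATF4. It was the gene with the fewest reads, 25 to 98 counts per library, and the 25 counts of EPZ5676 replicate 3 have an exact Poisson 95% interval of 16.2 to 36.9, which covers counting error only. Its level was 1.59, 1.78 and 1.22 CPM under EPZ5676 and 1.83, 1.68 and 1.71 CPM under ethanol. The groups overlapped, and the log2 fold change of -0.17 ± 0.24 (SE) had a 95% interval of -0.72 to 0.38.

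Phgdh encodes phosphoglycerate dehydrogenase, which catalyses the first and committed step of serine synthesis. Its level was 37.0, 39.1 and 25.4 CPM under EPZ5676 and 36.8, 30.4 and 30.7 CPM under ethanol. EPZ5676 replicates 1 and 2 lay above all ethanol libraries and replicate 3 lay below all of them. The log2 fold change of Phgdh was 0.05 ± 0.17 (SE), with an interval of -0.33 to 0.44, and it was negative, at -0.11, when both replicate 2 libraries were left out. A processed pseudogene of Phgdh is annotated in mouse, so reads could be shared with it. Psat1 encodes phosphoserine aminotransferase, the next enzyme of the route. Psat1 was at 129, 119 and 129 CPM under EPZ5676 and at 137, 133 and 139 CPM under ethanol, from 2371 to 6541 counts per library. The groups did not overlap, but the distance between them was small, 129 against 133 CPM at its narrowest. The log2 fold change of Psat1 was -0.12 ± 0.07 (SE), with an interval of -0.28 to 0.05 and an edgeR adjusted p of 0.752, or 0.29 with the replicate block. Asns and Psat1, both genes of amino acid synthesis, thus lay on opposite sides of the vehicle level, and neither passed.

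Slc7a11 encodes xCT, the light chain of the cystine-glutamate exchanger that feeds glutathione synthesis. Its level was 5.52, 5.35 and 6.29 CPM under EPZ5676 and 3.86, 6.55 and 5.17 CPM under ethanol. The ethanol libraries spanned the EPZ5676 libraries on both sides, and the log2 fold change was 0.14 ± 0.21 (SE), with an interval of -0.35 to 0.63. Slc7a5 encodes LAT1, the light chain of the exchanger for leucine and other large neutral amino acids. Slc7a5 was at 509, 406 and 479 CPM under EPZ5676 and at 473, 380 and 480 CPM under ethanol. The groups overlapped, and both replicate 2 libraries lay below the other 4. Its log2 fold change was 0.06 ± 0.12 (SE), with an interval of -0.20 to 0.33 and an adjusted p of 0.92 in the edgeR test. Slc3a2, the heavy chain that both transporters pair with, was at 213 ± 16.9 CPM under EPZ5676 and 227 ± 9.20 CPM under ethanol (SD, n = 3 each); it is named for that role, outside the rule for named genes and with its values seen.

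**Figure D2:**
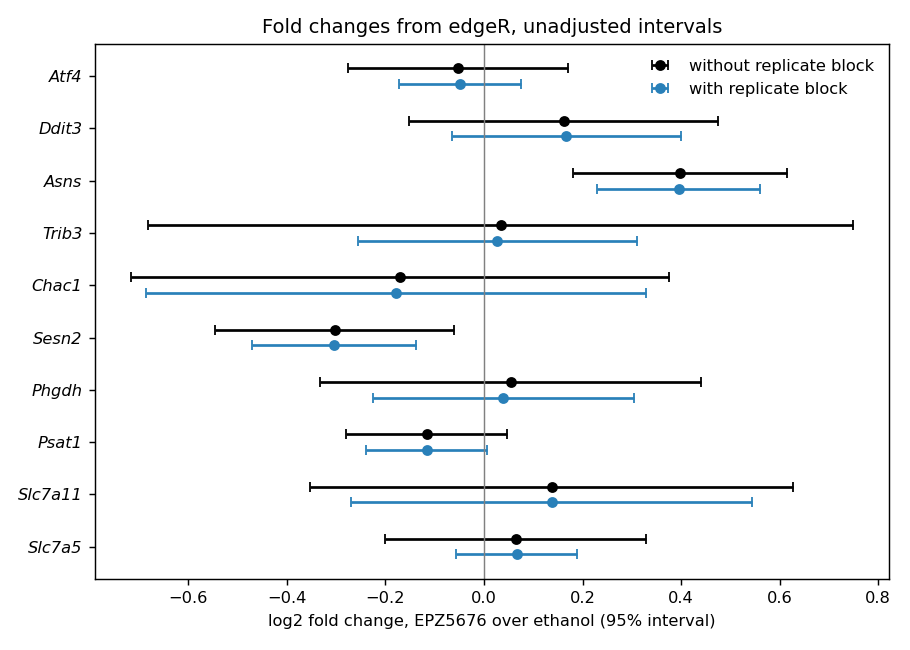
Log2 fold change (horizontal axis, EPZ5676 over ethanol) of each gene from edgeR's quasi-likelihood fit, with 95% intervals that are not adjusted for multiple testing, without the replicate block (black) and with it (blue). The intervals of Asns and Sesn2 leave out 0 in both fits; the other 8 genes' intervals include it, that of Psat1 with the block only barely (-0.24 to 0.00613).

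Within same-numbered pairs, 2 of the 10 genes, Asns and Ddit3, were higher under EPZ5676 in all 3 pairs, and 3, Atf4, Sesn2 and Psat1, were lower in all 3. Of all genes tested, 41.8% had the same direction in all 3 pairs. The differences of Asns were 0.42, 0.26 and 0.50 on the log2 scale in pairs 1, 2 and 3. For Atf4 they were -0.01, -0.13 and -0.00295, so that only pair 2 differed visibly. The other 5 genes changed direction between pairs. Slc7a11 had log2 differences of 0.52, -0.29 and 0.28, and Phgdh had 0.01, 0.36 and -0.27. Chac1 was at -0.21, 0.08 and -0.49, and Trib3 at 0.32, -0.01 and -0.23.

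**Figure D3:**
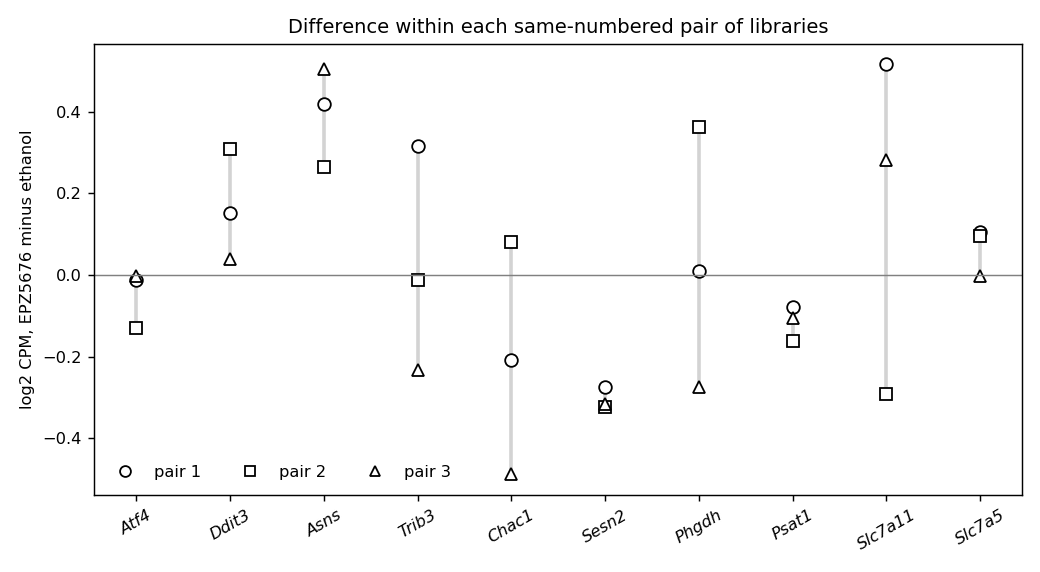
Difference in log2 CPM (vertical axis, EPZ5676 minus ethanol) within each same-numbered pair of libraries for the 10 genes; symbols mark the pair. Asns lies above 0 and Sesn2 below 0 in all pairs, while Slc7a11 runs from -0.29 to 0.52.

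Some of these genes differed more between replicate numbers than between treatments. Atf4 was higher in both replicate 2 libraries, at 219 CPM under EPZ5676 and 240 CPM under ethanol, than in the other 4, at 194 to 200 CPM. Trib3 went the other way, with 9.60 CPM in EPZ5676 replicate 2 and 9.69 CPM in ethanol replicate 2 against 14.7 to 21.3 CPM in the other 4. Slc7a5 was also lowest there, at 406 CPM in EPZ5676 replicate 2 and 380 CPM in ethanol replicate 2, against 473 to 509 CPM in the other 4. Slc1a4, a neutral amino acid transporter gene, had 14.9 CPM in EPZ5676 replicate 2 and 12.0 CPM in ethanol replicate 2, against 24.0 to 30.9 CPM in the other 4. The same libraries had the highest fibroblast marker sums, 1798 CPM under EPZ5676 and 2308 CPM under ethanol, against 1356 to 1471 CPM in the other 4. Of the undifferentiated spermatogonia markers, Nanos2, Nanos3, Zbtb16, Sall4 and Lin28a were lower in both replicate 2 libraries than in the other 4. Nanos2 was at 5.91 CPM under EPZ5676 and 3.19 CPM under ethanol there, against 12.7 to 14.6 CPM. The remaining markers of that list did not separate replicate 2 from the other 4. The part of either cell type in the pattern was not tested. Asns did not follow this split: EPZ5676 replicate 2, at 54.9 CPM, was the lowest of its group, while ethanol replicate 2, at 45.7 CPM, lay between its fellows. Without both replicate 2 libraries the log2 fold change of Asns was 0.46 and that of Sesn2 -0.29, with 0 of the 10 genes called.

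Divided by exon length (GENCODE M21, GRCm38), the order of levels among the 10 genes can be described, although the authors' gene models may differ. In the ethanol group Slc7a5 and Atf4 were the most abundant, at 126 ± 16.0 and 123 ± 14.4 CPM per kb, and did not differ beyond their spread. Psat1 followed at 46.4 ± 1.08 CPM per kb and Asns at 21.2 ± 0.431 CPM per kb. Phgdh and Ddit3 overlapped at 17.2 ± 1.89 and 16.8 ± 2.18 CPM per kb. Sesn2 was at 11.2 ± 0.804 and Trib3 at 7.24 ± 2.13 CPM per kb, and Chac1 and Slc7a11 were the lowest, at 1.06 ± 0.0488 and 0.528 ± 0.137 CPM per kb (SD, n = 3 for each gene). With EPZ5676 Asns was at 28.0 ± 2.67 CPM per kb, which kept it in the place below Psat1, at 42.8 ± 2.09 CPM per kb.

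Genes around these 10 were read from 7 lists of the wider pathway, and 0 of their tested genes were called in the edgeR fit without the block or in that with it. Stress sensors and other ATF4 pathway genes had 22 of 24 tested, with 8 positive and 14 negative log2 fold changes and a median of -0.04. Among them Cebpb, a partner factor of ATF4, was at 1.26 ± 0.507 CPM under EPZ5676 and 0.729 ± 0.242 CPM under ethanol (SD, n = 3 each), in overlapping groups. Gpt2, the mitochondrial alanine aminotransferase gene, was at 17.8 ± 1.75 CPM under EPZ5676 and 21.6 ± 1.20 CPM under ethanol, in separate groups and at an edgeR adjusted p of 0.665. Enzymes of serine, glycine and folate metabolism had 19 of 20 tested and a median of -0.05, with 7 positive and 12 negative. Sfxn1, the mitochondrial serine carrier gene, was at 8.65 ± 0.905 CPM under EPZ5676 and 7.12 ± 0.797 CPM under ethanol. Aldh1l1, a folate enzyme gene, was at 1.16 ± 0.194 CPM under EPZ5676 and 1.77 ± 0.409 CPM under ethanol.

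Of 14 amino acid transporter genes, all tested, 13 had a negative log2 fold change and 1 a positive one, and the median was -0.11. Over all genes tested, 51.7% had a negative log2 fold change. Slc38a1, a sodium-coupled glutamine transporter gene, was at 60.4, 72.3 and 52.7 CPM under EPZ5676 and at 76.3, 91.5 and 65.0 CPM under ethanol. It was lower in each pair although the groups overlapped, and its adjusted p was 0.674 without the block and 0.052 with it in the edgeR test. DESeq2 with the replicate block called Slc38a1 lower, at an adjusted p of 0.0219, among 293 of 14855 genes called in either direction. Slc1a5, another glutamine transporter gene, was at 34.0, 37.9 and 34.4 CPM under EPZ5676 and at 39.6, 44.1 and 42.9 CPM under ethanol, in separate groups, with an adjusted p of 0.645 in the edgeR test. Slc1a4 was the 1 gene of the list with a positive value, 0.32 ± 0.33 (SE). It was higher in each pair, with log2 differences of 0.37, 0.31 and 0.31 in pairs 1, 2 and 3, in overlapping groups. With the replicate block the log2 fold change was 0.33 ± 0.09, at an edgeR adjusted p of 0.114.

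Cytosolic aminoacyl-tRNA synthetase genes, many of which ATF4 also drives, had 8 positive and 12 negative values of 20 tested, with a median of -0.02. Vars was at 412 ± 29.8 CPM under EPZ5676 and 368 ± 31.6 CPM under ethanol, and Aars at 203 ± 10.9 CPM under EPZ5676 and 228 ± 5.83 CPM under ethanol (SD, n = 3 each), both in separate groups. Genes of endoplasmic reticulum chaperones and the XBP1 and ATF6 branches had 11 positive and 8 negative values of 19, with a median of 0.01. Hyou1, a chaperone gene, was at 828 ± 30.2 CPM under EPZ5676 and 760 ± 8.38 CPM under ethanol. Dnajc3, of the same list, went the other way, at 66.9 ± 4.60 CPM under EPZ5676 and 77.1 ± 5.53 CPM under ethanol. Both were in separate groups. Genes of the NRF2 pathway, which also drives Slc7a11, had 3 positive and 9 negative values of 12, with a median of -0.06. In that list Hmox1, the gene of a haem-degrading enzyme, was at 115 ± 8.14 CPM under EPZ5676 and 143 ± 30.3 CPM under ethanol, and Gsr, the glutathione reductase gene, at 373 ± 8.55 CPM under EPZ5676 and 408 ± 6.56 CPM under ethanol. DESeq2 with the replicate block called Hmox1 lower, at an adjusted p of 0.0461, among 293 of 14855 genes called in either direction. The other sestrins and the GATOR complexes, through which sestrins act, had 3 positive and 7 negative values of 10, with a median of -0.02.

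**Figure D4:**
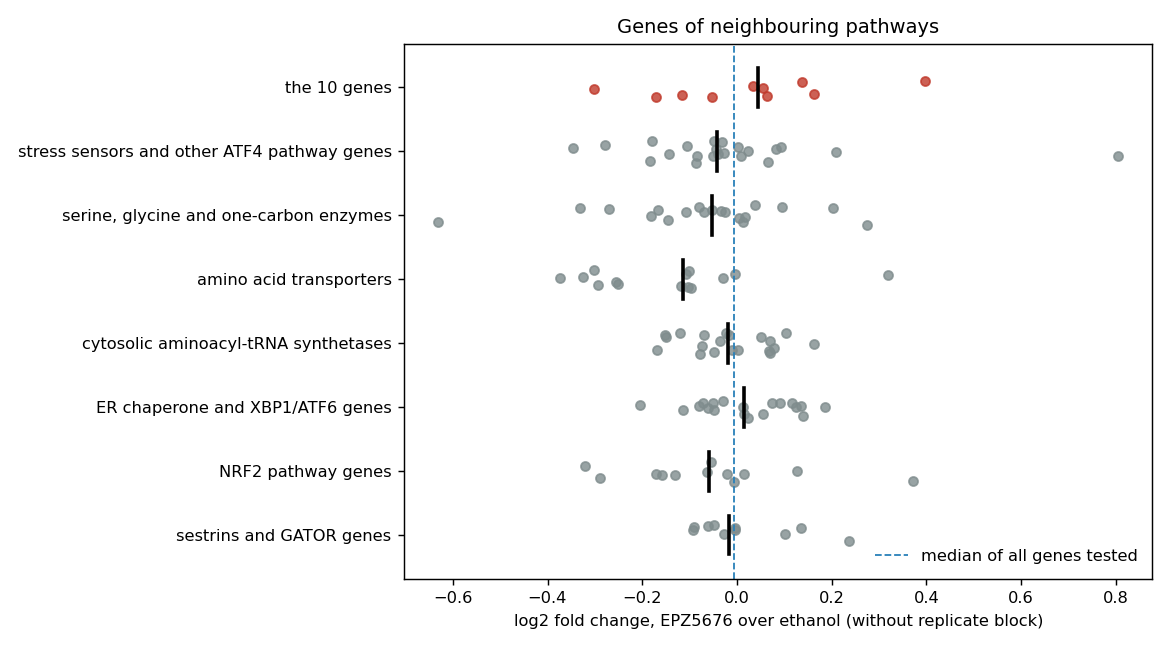
Log2 fold change (horizontal axis, EPZ5676 over ethanol, without the replicate block) of each tested gene in the 7 lists and of the 10 genes described here (red). Black bars are list medians and the dashed line is the median of all genes tested. The transporter list has 13 of 14 genes below 0, and it leaves out Slc7a5 and Slc7a11, which are among the red genes and above 0.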

How the data were processed

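The values are gene counts as deposited by the authors, in whole numbers and 1 row per symbol. Per the submitters' processing notes, the mm9 build was used with STAR, Bowtie, featureCounts and edgeR, none tied to a step. The gene column is headed refGene per the file headers. No gene model, strand setting or rule for multi-mapping reads is given in the sources used here. Whether antisense reads were counted is therefore unknown. Libraries were stranded poly(A) mRNA, per the labels' protocols.

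Counts were analysed in R 4.3.3 with edgeR 4.0.16 (filterByExpr, TMM, quasi-likelihood test, 2-sided, Benjamini-Hochberg over 14855 genes, threshold 0.05). Errors are the SD over 3 libraries or the SE of the log2 fold change, taken from the F statistic. Alternatives used DESeq2 1.42.0 and limma 3.58.1. The fits were checked on simulated counts with the same variability for every gene and no replicate effect. That check does not cover the shared deviation of same-numbered libraries.

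The labels number replicates 1 to 3 in each group. Deviations from the group means correlated at 0.411, 0.614 and 0.335 for same-numbered libraries, all over 0.1, and between -0.494 and 0.278 for the others; this is read from the labels' numbers and the data, since no label says what a number stands for. Residual degrees of freedom were 4 without the block and 2 with it when no library was left out, and fewer in the fits that left out a pair. Of 15 pairs of libraries, none was a copy of another (chi-square per degree of freedom of 3.64 or more).

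The 10 genes and the context lists were chosen with earlier results of these data known. From each list the rule named genes called in either fit and otherwise at most 2 per direction by smallest p, of which a selection is printed. The repeat table was not used.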

Additional observations from a re-analysis of the deposited data

How the results depend on the processing

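The count of genes called, 0 in the unblocked edgeR fit (1101 at an unadjusted p under 0.05), was 50 with DESeq2, 97 with the replicate block, 293 with DESeq2 and the replicate block, 10 without both replicate 2 libraries and 193 with the block and library totals alone, the last added after the data were seen. In the blocked fit it ran from 0 to 795 as each pair was left out in turn. That was 795 of 14822 genes without pair 2, 761 of 14912 without pair 3 and 0 of 15002 without pair 1. The count stayed 0 with limma-voom, the other scalings and filters, and each single library left out. Among the 10 genes, 1, Asns, was called with DESeq2 and the block, with the block and library totals alone, and in the blocked fits without pair 2 or pair 3 (range 0 to 1 over left-out pairs). In the same 4 settings 1 transporter, Slc38a1, was called. For serine and folate enzymes the range over left-out pairs was 0 to 2 (Gcat and Mat2a without pair 3). In the NRF2 list 1 gene was called with DESeq2 and the block (Hmox1), without pair 2 (Gclc) and without pair 3 (Hmox1). In edgeR with TMM scaling, the main filter and all 6 libraries, the block changed no call of a gene named here. The causes were not tested.

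Over 19 alternatives, Asns, Ddit3, Sesn2, Psat1 and Chac1 kept their direction. Atf4 turned positive without ethanol replicate 2 (0.04), and Slc7a5, Slc7a11, Trib3 and Phgdh changed sign in 2, 2, 4 and 4 alternatives. The median of the 10 genes, 0.04 with 6 positive, was -0.02 with 3 positive without EPZ5676 replicate 1, -0.02 with 5 positive without ethanol replicate 2, and -0.04 with 4 positive in the blocked fit without pair 1; it was positive in the other alternatives. Over the alternatives the list medians ran from -0.08 to 0.03 for tRNA synthetases, -0.02 to 0.09 for chaperones, -0.13 to 0.02 for the NRF2 list and -0.05 to 0.04 for sestrins and GATOR genes, so none of these 4 kept its sign. The medians of the other 3 lists stayed negative. Counts were lowest for Chac1, 25 to 98 per library.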
